A study of Homo sapiens with 82 samples.

Results

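HT29 cells kept with DMSO alone for 48 h were compared with HT29 cells kept with DMSO alone for 24 h, at the level of messenger RNA. HT29 is an established human colorectal adenocarcinoma line, and DMSO is the solvent in which the drugs of the study were dissolved, so the comparison holds no drug. The libraries were chosen by their labels alone: all RNA libraries of the agent DMSO, 4 at 24 h and 4 at 48 h, which are 8 of the 32 RNA libraries and 8 of the 82 samples of the series. The other 24 RNA libraries received 10 μM of GW3965 or T0901317, which are agonists of the liver X receptors (LXRs), or 10 μM of rosiglitazone, an agonist of PPARG, for the same times, with 4 libraries in each of 6 groups. All cells had been grown before treatment in medium free of phenol red with charcoal/dextran-treated fetal bovine serum, and whether medium was renewed between 24 and 48 h is not given in the sources used here. The study made each treatment and time in quadruplicate, and the labels number the replicates 1 to 4, but neither says whether these were separate cultures, so p-values measure the spread between these libraries, which may be technical. The 24 h and 48 h libraries were also deposited in separate count tables, so time in culture and count table cannot be told apart in any value below.

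Cultured carcinoma cells use up amino acids, glucose and growth factors of their medium and become dense with time. Cells that lack an amino acid, or that are stressed in other ways, slow general translation while ATF4, a transcription factor of the integrated stress response, is still made and turns on genes for amino acid transport, amino acid synthesis and tRNA charging. Genes of DNA replication are driven by E2F factors as cells enter S phase, genes of chaperones by heat shock factor, and genes of cholesterol synthesis by SREBP when sterols are low. Ligands of the epidermal growth factor receptor (EGFR) start a kinase cascade that turns on immediate early genes such as EGR1 and FOS and, with them, genes of its own inhibitors.

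Total counts ran from 30834003 to 39955727 at 24 h and from 32312041 to 38577979 at 48 h (exact permutation test, two-sided, p = 0.514). The number of genes with at least 10 counts ran from 20387 to 21520 and from 20758 to 21538. The 10 most abundant genes took 7.2005% to 7.31% of counts at 24 h and 6.36% to 6.67% at 48 h (exact permutation test, two-sided, p = 0.0286, the smallest p that 4 against 4 allows). No 2 libraries held the same values. The mitochondrial share of replicate 3 at 48 h was 1.85% against at least 2.65% in the other 48 h libraries. Without replicate 3 of both times, 1134 genes were called higher and 707 lower at 2-fold, against 1128 and 739 with them.

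All 12 epithelial markers that were looked up, general and intestinal, had counts. Levels are given in CPM, which are counts scaled to the same total in each library. The summed level of the 12 ran from 18588 to 19270 CPM at 24 h and from 18409 to 19800 CPM at 48 h. Most of it came from the general keratins KRT8 and KRT18. Of 7 fibroblast markers, COL1A2 and DCN were at 0 in all 8 libraries, and the sum ran from 4.38 to 6.34 CPM at 24 h and from 5.89 to 8.17 CPM at 48 h. Of 7 leukocyte markers, CD3E and CD2 were at 0, and the sum ran from 460.0 to 562 CPM at 24 h and from 475 to 503 CPM at 48 h, nearly all of it from LYZ, which intestinal epithelium also makes; without LYZ it stayed at or below 6.03 CPM. The 5 endothelial markers with a row summed to at most 0.8295 CPM, and PECAM1 has no row. CLDN5, the only one of them that could be tested, had 57 counts over the 24 h libraries and 10 over the 48 h libraries, and CD14 of the leukocyte list had 233 and 87. Both were called lower (adjusted p = 0.00259 and 7.44e-05, edgeR). ITGAM of the leukocyte list had 230 and 341 counts. The markers of other cell types thus summed to at most 8.17 CPM per list, LYZ excepted, beside keratins and cadherin of the labelled epithelium.

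Of 21023 genes tested with edgeR's quasi-likelihood test, 1128 were higher at 48 h at a fold change of at least 2 and a Benjamini-Hochberg adjusted p under 0.01, which is 5.37% of the genes tested, and 739 were lower, which is 3.52%. At 1.5-fold, 2475 genes were higher (11.8%) and 2123 were lower (10.1%). With no limit on the fold change, 4731 genes were higher (22.5%) and 4540 were lower (21.6%), and the median difference over all genes tested was 0.00092 (log2). The groups did not overlap, with every 48 h library above every 24 h library, for 5332 genes (25.4%), and the reverse held for 5164 genes (24.6%). Changes of any size were nearly as frequent in one direction as in the other, while those of at least 2-fold were more often increases, as the plot of all genes shows. The scaling between libraries takes most genes as unchanged, so it sets part of this balance. A shift common to all RNA could not be seen. From here on, CPM values are given per library in the order of replicates 1 to 4, with scaling by the trimmed mean of M values (TMM), and differences are log2 values of 48 h against 24 h with their standard error (SE). In a mixed RNA sample of many cells, fewer cells that express a gene and less of its RNA in each cell cannot be told apart. List members that rose or fell are counted at adjusted p under 0.01, with no limit on the fold change. Such counts stand against 22.5% and 21.6% of all genes tested. Counts of members at 2-fold stand against 5.37% and 3.52%.

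**Figure D1:**
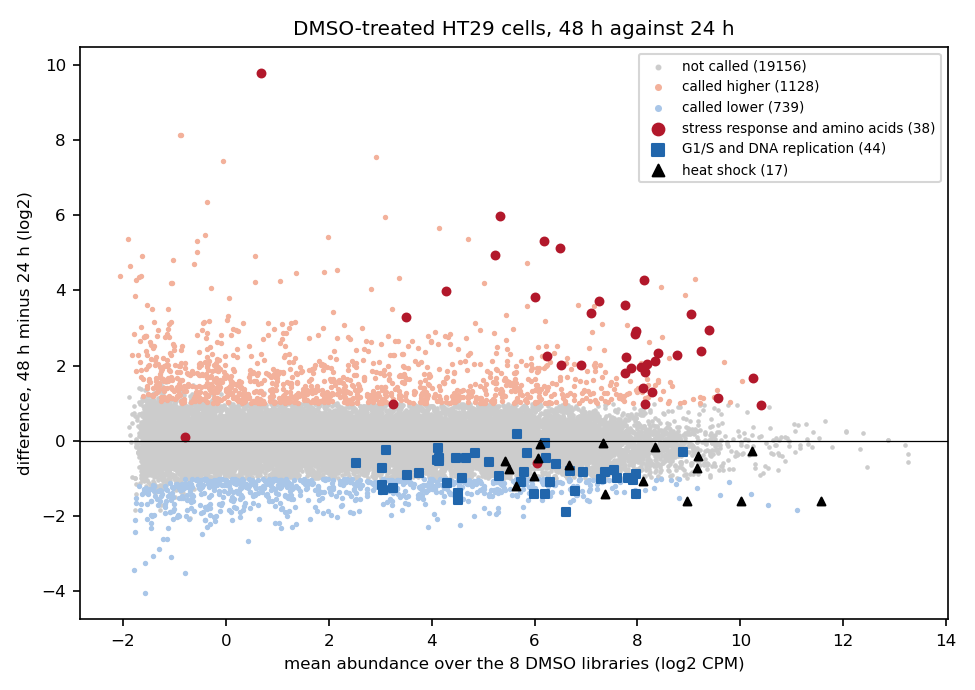
Difference between DMSO 48 h and 24 h (log2, y axis) against mean abundance over the 8 DMSO libraries (log2 CPM, x axis) for the 21023 genes tested. Pale points are the 1128 genes called higher and the 739 called lower at 2-fold. Dark red circles (integrated stress response and amino acids, 38 genes) lie above 0 with the exception of ATF5, blue squares (DNA replication, 44 genes) and black triangles (heat shock, 17 genes) lie mostly below 0, and the fitted value of FGF21 at the top rests on 0 counts at 24 h.

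Promoter sequences of members of 3 gene groups are shown first, because each group has a textbook DNA motif and the groups moved in different directions. The windows hold 120 bases from within the 250 bases before the RefSeq start of each gene, written 5′ to 3′ on the strand of the gene (build GRCh38.p14; genes were matched by symbol, since the submitters' processing notes name hg19). Capitals mark the motif on either strand. For the stress response genes the motif was TGATGNAA, the composite element read by ATF4 with a C/EBP partner, also called CARE:
FGF21 (chr19:48755404-48755523, plus strand): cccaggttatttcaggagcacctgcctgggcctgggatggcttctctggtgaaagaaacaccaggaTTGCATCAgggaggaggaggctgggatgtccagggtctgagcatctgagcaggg
ATF3 (chr1:212565166-212565285, plus strand): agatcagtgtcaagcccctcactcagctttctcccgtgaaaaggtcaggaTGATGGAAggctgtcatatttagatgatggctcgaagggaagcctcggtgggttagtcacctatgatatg
CHAC1 (chr15:40953221-40953340, plus strand): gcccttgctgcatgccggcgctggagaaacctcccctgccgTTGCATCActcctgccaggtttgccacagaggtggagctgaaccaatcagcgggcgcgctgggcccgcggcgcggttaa
ASNS (chr7:97872409-97872528, minus strand): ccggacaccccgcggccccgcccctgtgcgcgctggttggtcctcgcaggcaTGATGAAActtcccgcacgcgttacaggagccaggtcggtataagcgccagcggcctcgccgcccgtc
AARS (chr16:70289624-70289743, minus strand): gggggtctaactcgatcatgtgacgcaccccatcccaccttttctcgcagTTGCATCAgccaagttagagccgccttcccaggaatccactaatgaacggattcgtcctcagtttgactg
In the 250 bases before the start, this motif was present in 5 of the 31 stress response genes with a promoter sequence (16.1%). It was present in 34 of 699 genes called higher at 2-fold (4.86%) and in 5 of 372 called lower (1.34%). It was also in 172 of 11448 genes tested (1.502%) and in 866 of the 27195 promoters searched (3.18%). Here and below, each set holds only its genes with a promoter sequence, and not every chromosome was searched. For the heat shock genes the motif was the heat shock element of 3 units in alternating orientation, GAA, TTC and GAA with 2 free bases between units, or its reverse complement:
HSPA8 (chr11:123062137-123062256, minus strand): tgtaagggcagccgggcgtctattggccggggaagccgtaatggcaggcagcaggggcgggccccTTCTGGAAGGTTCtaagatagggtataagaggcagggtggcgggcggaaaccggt
CHORDC1 (chr11:90223050-90223169, minus strand): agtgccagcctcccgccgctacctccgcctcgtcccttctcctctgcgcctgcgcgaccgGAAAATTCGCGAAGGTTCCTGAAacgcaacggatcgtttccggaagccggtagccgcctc
It was present in 2 of 16 heat shock genes (12.5%), in 2 of 372 genes called lower at 2-fold (0.538%), in none of 699 called higher, in 38 of 11448 of all genes tested (0.332%) and in 120 of all promoters (0.441%). For the replication genes the motif was the E2F site, TTTCCCGC or TTTGGCGC:
UHRF1 (chr19:4909381-4909500, plus strand): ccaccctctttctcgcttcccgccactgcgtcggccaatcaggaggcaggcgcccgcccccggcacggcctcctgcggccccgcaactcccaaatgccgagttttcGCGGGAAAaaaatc
PCNA (chr20:5126623-5126742, minus strand): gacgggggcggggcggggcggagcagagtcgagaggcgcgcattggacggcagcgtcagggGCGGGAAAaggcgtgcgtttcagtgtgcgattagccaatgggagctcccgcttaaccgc
E2F1 (chr20:33686386-33686505, minus strand): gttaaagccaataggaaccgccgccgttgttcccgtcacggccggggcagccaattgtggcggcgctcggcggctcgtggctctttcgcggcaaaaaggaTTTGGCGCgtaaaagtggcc
MCM3 (chr6:52284847-52284966, minus strand): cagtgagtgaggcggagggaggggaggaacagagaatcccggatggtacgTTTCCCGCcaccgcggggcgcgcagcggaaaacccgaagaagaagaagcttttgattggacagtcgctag
An E2F site was present in 15 of 38 genes of G1/S and DNA replication (39.5%), in 2 of 34 genes of mitosis (5.88%), in 15 of 372 genes called lower at 2-fold (4.03%), in 12 of 699 called higher (1.72%), in 329 of 11448 of all genes tested (2.87%) and in 536 of all promoters (1.97%). In CHORDC1 the capitals cover 3 overlapping matches, and HSPA8 has a further match upstream of the window shown. A match to these letters describes the window and is neither proof of binding nor a cause of a change.

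The integrated stress response and amino acid genes stood highest among the groups. Of 40 members, 38 were tested, and 36 of these rose, against 22.5% of all genes tested; 33 rose by at least 2-fold. The median difference was 2.28 (log2). FGF21 lay above this median both as fitted and at the bound given below, so the choice between these values could not move the median. ATF5, a factor of the same response, fell, and ALDH1L2, a mitochondrial folate enzyme, was at most 0.992 CPM in any library and did not differ (adjusted p = 0.883, edgeR). The list was chosen with earlier results of these data known, so its direction is a description. ATF4, ATF5, ALDH1L2, DDIT3, TRIB3, ASNS, AARS, CTH, PCK2, PHGDH and PSAT1 are described for their known roles and were chosen after their values had been seen, as were CDC6, E2F1, TYMS, MCM3, NDC80, CHORDC1 and HSPA5 further on.

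Among transcription factors and regulators of this response, 7 of 8 rose. ATF4 itself (ENSG00000128272.10) was at 179, 173, 186 and 177 CPM at 24 h and 430.2, 411, 488 and 434 CPM at 48 h. The groups were far apart, with a difference of 1.30 ± 0.06 (log2, SE; adjusted p = 9.20e-12, edgeR). ATF3 (ENSG00000162772.12), a repressor and AP1 partner induced by ATF4, was at 3.27, 3.94, 3.92 and 3.29 CPM at 24 h and 145, 134, 148 and 142 CPM at 48 h. It was low in every 24 h library and uniformly high at 48 h, with a difference of 5.30 ± 0.07 (log2, SE; adjusted p = 3.69e-17, edgeR). DDIT3, which encodes the stress factor CHOP, was at 9.34, 8.05, 9.04 and 7.46 CPM at 24 h and 122, 111, 136 and 114 CPM at 48 h, a difference of 3.83 ± 0.08 (log2, SE; adjusted p = 1.89e-15, edgeR). TRIB3, a pseudokinase that CHOP induces and that restrains ATF4, rose by 3.38 (log2, adjusted p = 2.05e-16). ATF5 was at 80.8, 76.9, 76.2 and 82.4 CPM at 24 h and 51.7, 49.96, 54.4 and 53.3 CPM at 48 h, which is 1.51-fold lower (adjusted p = 4.53e-08, edgeR).

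The 3 secreted factors of the list, FGF21, ADM2 and VEGFA, rose from very different levels. FGF21, a hormone of the fasting response, had 0 counts in all 4 libraries at 24 h and 74, 80, 182 and 102 counts at 48 h. Set against a floor of 3 counts over the 24 h group, it was at least 154-fold higher. ADM2, a vasoactive peptide, was at 2.06, 2.42, 2.28 and 2.83 CPM at 24 h and 73.4, 69.97, 73.3 and 74.4 CPM at 48 h, a difference of 4.93 ± 0.08 (log2, SE; adjusted p = 7.19e-17, edgeR). INHBE, a subunit of activin E that is not in the list, had the largest increase of all genes with a mean log2 CPM of at least 1: it was between 0 and 0.166 CPM at 24 h and between 14.2 and 16.4 CPM at 48 h, a difference of 7.55 ± 0.23 (log2, SE; adjusted p = 1.22e-13, edgeR). VEGFA, the growth factor of blood vessels, rose 7.67-fold, from 146 to 164 CPM to 1115 to 1229.6 CPM (adjusted p = 2.22e-16, edgeR). None of these genes overlapped between the groups, with 48 h higher, as in 25.4% of all genes tested.

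All 7 genes of transport in the list, which are amino acid transporters and the VLDL receptor, rose, 6 of them by at least 2-fold. SLC6A9 (ENSG00000196517.7), the glycine transporter GLYT1, was at 1.24, 1.09, 1.49 and 1.17 CPM at 24 h and 89.5, 68.8, 77.1 and 81.03 CPM at 48 h, a difference of 5.97 ± 0.11 (log2, SE; adjusted p = 2.00e-16, edgeR). SLC7A11, which exchanges cystine for glutamate, rose 7.23-fold with a spread of 431 to 439 CPM over the 48 h libraries. Of 11 enzymes of amino acids, one-carbon units and glutathione, 10 rose, all by at least 2-fold. ASNS (ENSG00000070669.12), which makes asparagine, was at 30.1, 33.2, 34.8 and 32.3 CPM at 24 h and 398, 369, 439 and 389 CPM at 48 h, a difference of 3.61 ± 0.07 (log2, SE; adjusted p = 2.05e-16, edgeR). CHAC1, which degrades glutathione, was at 5.41, 4.14, 5.24 and 5.02 CPM at 24 h and 182, 179, 158 and 181 CPM at 48 h, a difference of 5.13 ± 0.08 (log2, SE; adjusted p = 6.15e-17, edgeR), with replicate 3 lowest at 48 h. CTH, which makes cysteine, rose by 3.99 (log2), and PSAT1 and PHGDH of serine synthesis rose by 2.93 and 2.03. PCK2, which draws on mitochondrial oxaloacetate, rose by 3.41 (adjusted p = 6.15e-17, edgeR).

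All 7 genes of tRNA charging and tRNA export rose, with differences between 0.97 and 2.29 (log2). AARS, the alanyl-tRNA synthetase, was at 116, 115, 112 and 116 CPM at 24 h and 479, 447, 504 and 453 CPM at 48 h, a difference of 2.03 ± 0.05 (log2, SE; adjusted p = 1.53e-14, edgeR). Both inhibitors of mTORC1 in the list rose. DDIT4 was at 27.6, 26.5, 30.9 and 24.4 CPM at 24 h and 538, 503, 547 and 538 CPM at 48 h, a difference of 4.28 ± 0.07 (log2, SE; adjusted p = 7.19e-17, edgeR). SESN2, a leucine sensor, rose 13.1-fold, from 20.97 to 23.4 CPM to 278 to 293 CPM. ULBP1, a stress ligand of natural killer cells that is not in the list, rose 20.1-fold (adjusted p = 3.15e-14, edgeR). Every gene of this paragraph was higher in each 48 h library than in any 24 h library, as were 25.4% of all genes tested.

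The unfolded protein response split into members that rose and members that fell. Of 19 tested, 5 rose and 10 fell, against 22.5% and 21.6% of all genes tested, and the median was -0.35 (log2). ERN1, the sensor IRE1, was at 7.895, 6.095, 6.02 and 8.02 CPM at 24 h and 54.6, 53.9, 55.3 and 54.03 CPM at 48 h, a difference of 2.96 ± 0.08 (log2, SE; adjusted p = 5.34e-14, edgeR). HERPUD1, of endoplasmic reticulum degradation, rose by 2.01 (log2), and XBP1, the factor that IRE1 splices, by 1.41. The chaperones of the same compartment did not follow: SDF2L1 was at 14.9, 15.4, 11.6 and 16.3 CPM at 24 h and 4.44, 3.13, 3.79 and 3.53 CPM at 48 h, a difference of -1.96 ± 0.12 (log2, SE; adjusted p = 9.95e-10, edgeR). CALR fell by 0.96 (log2) and CRELD2 by 0.90, and HSPA5, the chaperone BiP, was at 317 to 345 CPM at 24 h and 341 to 410.3 CPM at 48 h, with overlapping groups (adjusted p = 0.0289, edgeR).

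**Figure D2:**
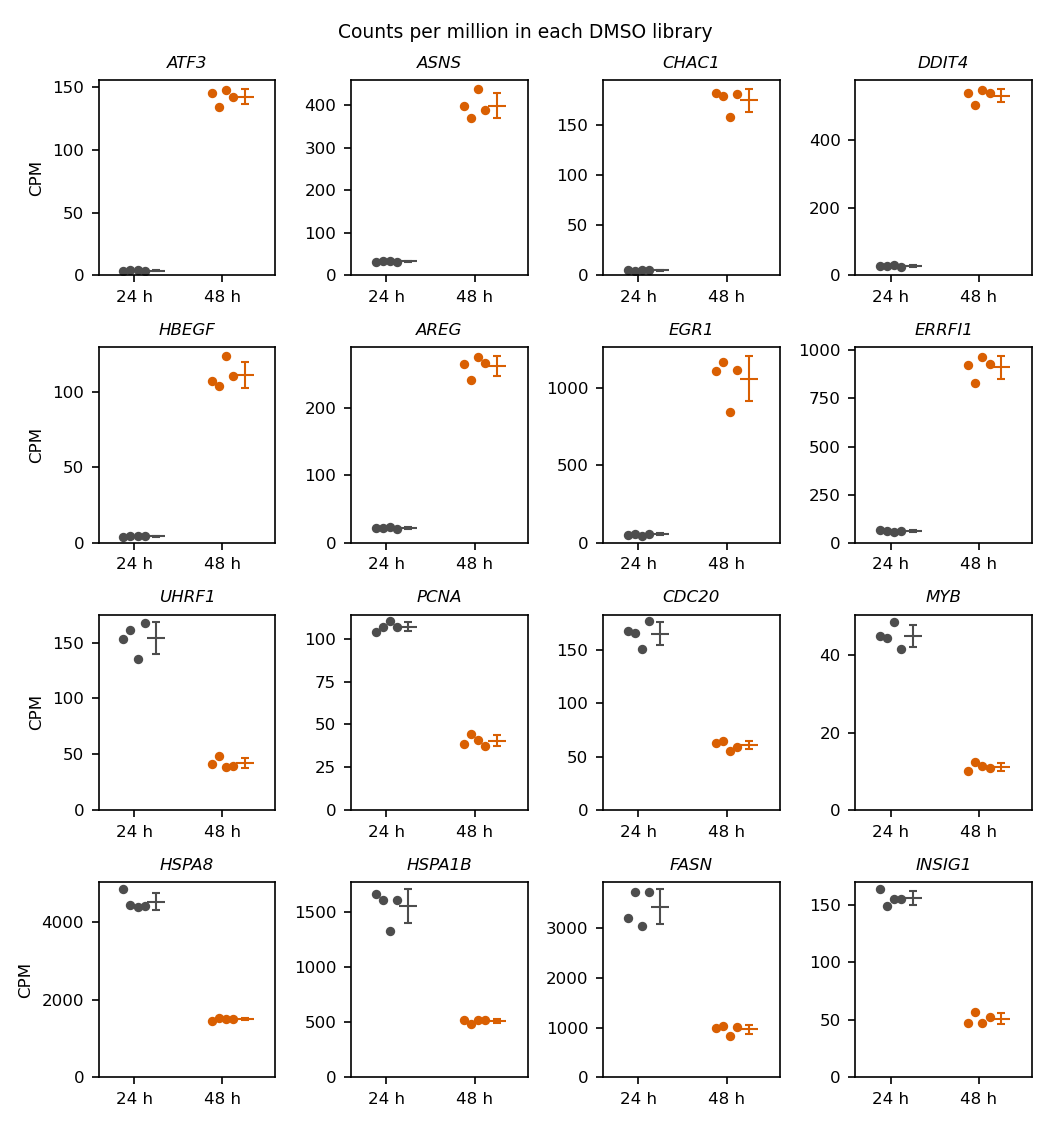
CPM (y axes, starting at 0) in each DMSO library at 24 h and 48 h (points, 4 per group) with the group mean and SD beside them, for 16 genes of the stress response, EGFR signalling, cell division, and chaperones and lipids (rows from top to bottom). In each panel every 48 h library lies on one side of every 24 h library: above in the upper 2 rows, below in the lower 2 rows. Of all genes tested, 25.4% lay wholly above and 24.6% wholly below in this way.

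Ligands of EGFR rose with the stress genes. Of 11 ligands, receptors and regulators tested, 8 rose and 1, ERBB2, fell, and the median was 0.65 (log2). HBEGF (ENSG00000113070.6), a membrane-bound ligand that is shed, was at 3.48, 4.44, 4.31 and 4.55 CPM at 24 h and 107, 104, 123 and 110.2 CPM at 48 h, a difference of 4.73 ± 0.09 (log2, SE; adjusted p = 1.63e-16, edgeR). AREG, amphiregulin, was at 21.7, 22.5, 23.04 and 20.1 CPM at 24 h and 265, 241, 276 and 267 CPM at 48 h, a difference of 3.58 ± 0.06 (log2, SE; adjusted p = 1.20e-16, edgeR); its near-identical copy AREGB has a row of its own, so that counting may have split reads between them. EREG, epiregulin, rose 8.41-fold, from 45.04 to 48.2 CPM to 381 to 405 CPM (adjusted p = 7.19e-17, edgeR). BTC, a further ligand, was between 0.904 and 2.02 CPM and then between 2.25 and 4.17 CPM, so its rise of 1.03 (log2) rests on a low level. The receptors moved little: EGFR rose by 0.36 and ERBB3 by 0.44, and ERBB2 fell by 0.32, which was not called in a fit of all 32 RNA libraries (adjusted p = 0.0130, edgeR). ERRFI1, which blocks the receptor from inside the cell, was at 65.7, 62.3, 57.7 and 60.01 CPM at 24 h and 925, 829, 965 and 927 CPM at 48 h, a difference of 3.89 ± 0.06 (log2, SE; adjusted p = 7.19e-17, edgeR).

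All 8 subunits of AP1 rose by at least 2-fold, with a median of 1.56 (log2), ATF3 being one of them. FOS was at 22.4, 25.1, 24.7 and 26.6 CPM at 24 h and 118.5, 113, 116 and 119.99 CPM at 48 h, a difference of 2.25 ± 0.06 (log2, SE; adjusted p = 1.72e-14, edgeR). JUN was at 68.7, 75.7, 67.2 and 73.5 CPM at 24 h and 173, 176, 171 and 171 CPM at 48 h, a difference of 1.28 ± 0.05 (log2, SE; adjusted p = 3.57e-12, edgeR), and FOSB, FOSL1, FOSL2, JUNB and JUND lay between 1.15 for FOSL2 and 1.88 for FOSB. In each subunit the 2 groups kept apart with 48 h higher, as in 25.4% of all genes tested. Of 14 other immediate early genes, 13 rose and none fell, with a median of 1.30. EGR1 (ENSG00000120738.6) was at 52.3, 58.5, 45.7 and 58.1 CPM at 24 h and 1110.1, 1171, 845 and 1116 CPM at 48 h, a difference of 4.31 ± 0.10 (log2, SE; adjusted p = 8.41e-15, edgeR), with replicate 3 lowest at both times. EGR2, a related factor, rose by 4.91 (log2) from a level of at most 0.133 CPM. KLF10, a repressor, rose by 2.11, and IER3, a survival gene, by 2.08.

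The phosphatases and adaptors that dampen MAPK signalling rose in smaller steps. Of 21 tested, 17 rose, DUSP7 fell, and the median was 0.68 (log2). DUSP5, a nuclear phosphatase of ERK, was at 4.62, 5.002, 3.99 and 3.85 CPM at 24 h and 25.6, 23.8, 30.4 and 30.2 CPM at 48 h, a difference of 2.66 ± 0.10 (log2, SE; adjusted p = 2.83e-12, edgeR). DUSP1, which acts on several MAP kinases, was at 4.72, 5.47, 4.87 and 4.81 CPM at 24 h and 32.1, 25.5, 30.6 and 30.97 CPM at 48 h, a difference of 2.59 ± 0.09 (log2, SE; adjusted p = 4.64e-13, edgeR). DUSP8 rose by 1.98, PHLDA1 by 1.82 and ETV5, a factor downstream of ERK, by 1.33. The 4 libraries of each group kept apart for all of these with 48 h higher, as in 25.4% of all genes tested.

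**Figure D3:**
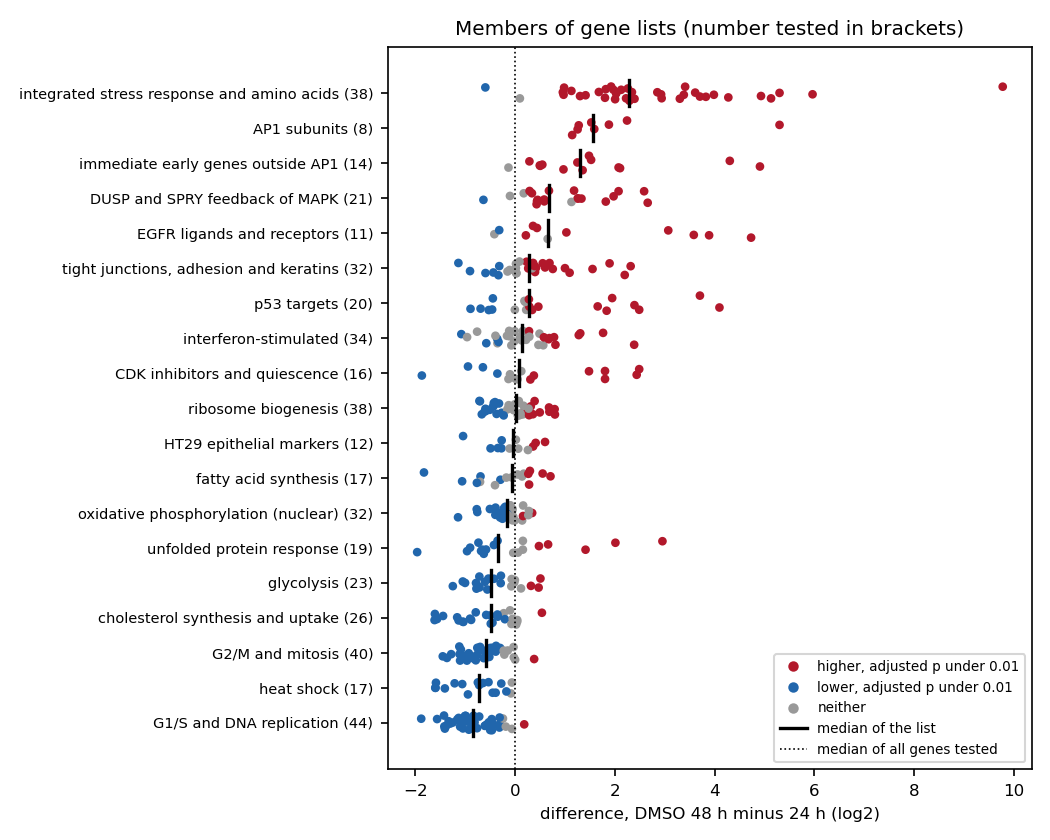
Difference between DMSO 48 h and 24 h (log2, x axis) for each tested member of 19 gene lists (rows, ordered by median; number tested in brackets). Red points were higher and blue points lower at adjusted p under 0.01, grey points neither, black bars are list medians and the dotted line is the median of all 21023 genes. The stress response list (median 2.28) and the AP1 list (1.56) lie to the right, and heat shock (-0.72) and G1/S (-0.85) to the left.

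Genes of cell division fell together. Of 44 genes of G1/S and DNA replication, 40 fell, against 21.6% of all genes tested. Of these 40, 15 fell by at least 2-fold, and the median of the list was -0.85 (log2). UHRF1 (ENSG00000034063.7), which keeps DNA methylation at the fork, was at 153, 162, 135 and 167 CPM at 24 h and 41.4, 48.2, 38.8 and 39.1 CPM at 48 h, a difference of -1.88 ± 0.08 (log2, SE; adjusted p = 5.00e-12, edgeR). PCNA, the sliding clamp, was at 104, 107, 110.4 and 107 CPM at 24 h and 38.6, 44.7, 40.9 and 37.3 CPM at 48 h, a difference of -1.41 ± 0.06 (log2, SE; adjusted p = 5.84e-12, edgeR). GINS1 of the helicase fell by 1.56, POLD1, the catalytic subunit of DNA polymerase delta, by 1.42, FEN1, the flap nuclease, by 1.42, and ORC1 of the origin complex by 1.38. E2F1 fell by 1.33, TYMS by 1.09 and MCM3 by 1.01. CDC6, which loads the helicase, was the member called higher: it was at 47.2, 45.3, 49.5 and 46.9 CPM at 24 h and 53.7, 52.2, 55.2 and 53.7 CPM at 48 h, a difference of 0.18 ± 0.05 (log2, SE; adjusted p = 0.00496, edgeR). That call is weak. It was lost in the fit of all 32 RNA libraries (adjusted p = 0.0445) and when 1 of 6 single libraries was left out (replicate 1, 2 or 4 at 24 h or replicate 1, 3 or 4 at 48 h, with differences from 0.16 to 0.19).

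Of 40 genes of G2/M and mitosis, 33 fell, against 21.6% of all genes tested. Of these 33, 8 fell by at least 2-fold, and the median of the list was -0.58 (log2). CDC20, the activator of the anaphase-promoting complex, was at 167, 166, 151 and 176 CPM at 24 h and 62.6, 64.2, 55.6 and 59.2 CPM at 48 h, a difference of -1.45 ± 0.06 (log2, SE; adjusted p = 6.36e-12, edgeR). ANLN, of the cleavage furrow, fell by 1.37, MAD2L1 of the spindle checkpoint by 1.28, the kinesin KIF20A by 1.12, the spindle pole gene ASPM by 1.11 and cyclin A2 (CCNA2) by 1.10. NDC80, of the kinetochore, rose by 0.38 (adjusted p = 3.25e-05, edgeR). The decreases were smaller than the increases of the stress response: none of the 84 genes of both lists fell by more than 1.88 (log2).

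Inhibitors of cyclin-dependent kinases and genes of quiescence went both ways, with 7 of 16 higher and 4 lower. Of all genes tested, 22.5% were higher and 21.6% lower, so the number lower was near the share of all genes. CDKN1A, the inhibitor p21, was at 12.4, 10.04, 11.6 and 12.6 CPM at 24 h and 68.3, 62.4, 63.1 and 69.2 CPM at 48 h, a difference of 2.49 ± 0.07 (log2, SE; adjusted p = 5.79e-14, edgeR). CDKN2B, the inhibitor p15, was at 7.895, 7.95, 6.42 and 6.33 CPM at 24 h and 38.9, 34.9, 40.5 and 40.5 CPM at 48 h, a difference of 2.44 ± 0.09 (log2, SE; adjusted p = 7.08e-13, edgeR); an antisense gene overlaps it, and without a stated strand setting their reads cannot be told apart. CDKN2C, the inhibitor p18, fell by 1.87 (adjusted p = 2.18e-09, edgeR). Of 20 genes known as targets of p53, 11 rose and 5 fell, against 22.5% and 21.6% of all genes tested, with a median of 0.28 (log2). GDF15, a secreted factor that ATF4 and CHOP also induce, was at 36.9, 42.1, 34.4 and 41.3 CPM at 24 h and 663, 606, 693 and 687 CPM at 48 h, a difference of 4.10 ± 0.07 (log2, SE; adjusted p = 1.63e-16, edgeR). PMAIP1, which promotes apoptosis and is likewise induced by ATF4, rose by 2.39. MYB, a factor of proliferating crypt cells, was at 45.01, 44.3, 48.5 and 41.7 CPM at 24 h and 10.03, 12.4, 11.4 and 10.9 CPM at 48 h, a difference of -2.01 ± 0.07 (log2, SE; adjusted p = 9.95e-13, edgeR), and its relative MYBL1 fell by 2.00 from a level of at most 4.01 CPM.

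Chaperones of the heat shock response fell. Of 17 tested, 15 fell and none rose, 6 fell by at least 2-fold, and the median was -0.72 (log2). HSPA8 (ENSG00000109971.8), the constitutive HSP70, was at 4868, 4448, 4403 and 4414 CPM at 24 h and 1464, 1527, 1506 and 1509 CPM at 48 h, a difference of -1.59 ± 0.05 (log2, SE; adjusted p = 1.01e-13, edgeR). The 48 h libraries lay within a narrow band, and replicate 1 was highest at 24 h. The inducible HSPA1B was at 1668, 1614, 1326 and 1613 CPM at 24 h and 520.3, 487, 524 and 522 CPM at 48 h and its near-identical copy HSPA1A at 804, 782, 635 and 778 CPM at 24 h and 253, 239, 255 and 252 CPM at 48 h; reads may have been split between them, and the differences were -1.60 ± 0.07 (log2, SE; adjusted p = 4.77e-12, edgeR) for HSPA1B and -1.59 ± 0.07 (log2, SE; adjusted p = 6.53e-12, edgeR) for HSPA1A. FKBP4, a co-chaperone of steroid receptors, fell by 1.41, the mitochondrial HSPE1 by 1.21, and HSPH1, an exchange factor of HSP70, by 1.06. CHORDC1, a co-chaperone of HSP90 with 3 matches to the heat shock motif above, was at 56.3, 58.1, 58.1 and 55.02 CPM at 24 h and 31.8, 32.8, 35.1 and 35.99 CPM at 48 h, a difference of -0.75 ± 0.05 (log2, SE; adjusted p = 7.03e-09, edgeR).

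Genes of cholesterol synthesis fell. Of 26 tested, 18 fell, 8 of them by at least 2-fold, and the median was -0.49 (log2). INSIG1, which holds SREBP back and is itself its target, was at 164, 149, 155 and 155 CPM at 24 h and 47.4, 56.9, 47.04 and 52.5 CPM at 48 h, a difference of -1.61 ± 0.06 (log2, SE; adjusted p = 2.63e-12, edgeR). HMGCS1, an early enzyme of the pathway, was at 182, 187, 207 and 199 CPM at 24 h and 61.9, 70.7, 61.6 and 68.2 CPM at 48 h, a difference of -1.56 ± 0.06 (log2, SE; adjusted p = 2.40e-12, edgeR). SC4MOL (now MSMO1) fell by 1.61, MVK by 1.44, IDI1 by 1.16 and MVD by 1.13. Of 17 genes of fatty acid synthesis, 5 rose and 5 fell, against 22.5% and 21.6% of all genes tested. Their median was -0.07 (log2). FASN, the fatty acid synthase, was at 3203, 3724, 3046 and 3712 CPM at 24 h and 987, 1037, 824 and 1013 CPM at 48 h, a difference of -1.83 ± 0.08 (log2, SE; adjusted p = 9.20e-12, edgeR), and the elongase ELOVL6 fell by 1.06.

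The receptors that the drugs of the study bind were measured in the same libraries. PPARG (ENSG00000132170.15) was at 47.2, 43.5, 48.4 and 49.5 CPM at 24 h and 87.3, 77.97, 83.9 and 82.4 CPM at 48 h, a difference of 0.81 ± 0.06 (log2, SE; adjusted p = 2.95e-09, edgeR). PPARD, a related receptor, rose by 1.10. NR1H2, which encodes LXRB, rose by 0.41, RXRA, the shared partner, fell by 0.43, and NR1H3, which encodes LXRA, was at 76.5, 78.3, 69.8 and 74.9 CPM at 24 h and 85.2, 80.9, 69.1 and 76.5 CPM at 48 h, with overlapping groups (adjusted p = 0.467, edgeR). PPARGC1B, a coactivator of mitochondrial genes, fell by 1.45. Of the 11 receptors and cofactors tested, 6 rose and 3 fell, against 22.5% and 21.6% of all genes tested. The corepressor NCOR1 rose by 0.64, NRIP1, a further cofactor, rose by 0.39, and PPARA, the receptor of fatty acid oxidation, fell by 0.24 (adjusted p = 0.00347, edgeR), a call that was lost without replicate 2 or replicate 3 at 24 h (-0.22 and -0.21), without replicate 1 at 48 h (-0.22) and without both replicates 3 (-0.21).

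Of 16 LXR targets tested, 7 rose and 5 fell, against 22.5% and 21.6% of all genes tested, so the group had no common direction. The sterol exporter ABCG1 was at 7.13, 6.92, 6.64 and 8.19 CPM at 24 h and 24.9, 21.9, 24.9 and 23.99 CPM at 48 h, a difference of 1.73 ± 0.08 (log2, SE; adjusted p = 2.52e-11, edgeR). Its relative ABCA1 was at 5.103, 4.64, 4.996 and 4.52 CPM at 24 h and 3.28, 2.51, 1.897 and 2.19 CPM at 48 h, a difference of -0.97 ± 0.15 (log2, SE; adjusted p = 4.12e-05, edgeR). TTC39B rose by 1.83, and SREBF1, the lipogenic SREBP, rose by 0.28, a call that was lost in the fit of all 32 RNA libraries (adjusted p = 0.0547, edgeR). PDK4, a target of PPARG and a brake on pyruvate oxidation, was at 4.39, 5.04, 5.04 and 4.81 CPM at 24 h and 4.41, 5.12, 4.502 and 4.35 CPM at 48 h, with overlapping groups (adjusted p = 0.611, edgeR). ANGPTL4, a further PPARG target, stayed below 1 CPM, and its difference of -1.27 was not called (adjusted p = 0.0182, edgeR); without replicate 2 at 24 h it was -1.54 with an adjusted p of 0.00225.

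Of 23 genes of glycolysis, 15 fell and 3 rose, against 21.6% and 22.5% of all genes tested, with a median of -0.48 (log2). LDHA, which makes lactate, was at 819, 774, 818 and 809.6 CPM at 24 h and 335, 363, 323 and 335 CPM at 48 h, a difference of -1.25 ± 0.05 (log2, SE; adjusted p = 3.57e-12, edgeR). GAPDH, often used as a reference gene, was at 12256, 11724, 10879 and 11919 CPM at 24 h and 8238, 8211, 7523 and 7854 CPM at 48 h, a difference of -0.56 ± 0.05 (log2, SE; adjusted p = 7.12e-08, edgeR), and ACTB, another reference gene, was at 11189, 11050.2, 9789.9 and 11763 CPM at 24 h and 8987, 8765, 8264 and 8566 CPM at 48 h, a difference of -0.34 ± 0.05 (log2, SE; adjusted p = 5.45e-05, edgeR). PFKFB4, which sets the level of a glycolytic activator, fell by 1.05. Of 32 nuclear genes of oxidative phosphorylation, 15 fell, 2 rose and the median was -0.17 (log2), with the largest decrease in ATP5G1 (-1.14). GAPDH, ACTB and AGRN, a basement membrane proteoglycan (-0.68), are among the 10 most abundant genes, and EEF1A1, the elongation factor among them, rose by 0.26, with reads that its pseudogenes may share.

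Several of the largest changes lay outside these groups. Among the 15 largest increases, the trypsinogen PRSS1, which shares sequence with other trypsinogens, was at 0.406, 0.133, 0.441 and 0.0292 CPM at 24 h and 16.6, 13.6, 17.5 and 19.3 CPM at 48 h, a difference of 5.95 ± 0.25 (log2, SE; adjusted p = 7.03e-12, edgeR). G0S2, an inhibitor of fat breakdown, was at 0.381, 0.795, 0.686 and 0.904 CPM at 24 h and 32.1, 31.4, 41.1 and 33.4 CPM at 48 h, a difference of 5.66 ± 0.15 (log2, SE; adjusted p = 2.81e-14, edgeR). UNC5B, a netrin receptor, was at 1.27, 1.19, 0.980 and 1.52 CPM at 24 h and 53.6, 42.8, 55.1 and 53.1 CPM at 48 h, a difference of 5.37 ± 0.12 (log2, SE; adjusted p = 2.14e-15, edgeR). These 3 genes were below 2 CPM in every 24 h library and above 13 CPM in every 48 h library. Genes of this rank were chosen for large differences and groups that do not overlap, so this gap follows from the choice. KIAA1239 (now NWD2) rose by 5.41 and the protease inhibitor SERPINA3 by 4.48. The other genes of this rank were a pair of long noncoding RNAs, listed by clone names and now called LINC00365 and LINC01133, and genes given above.

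The 15 largest decreases were smaller, from -1.95 for SAC3D1 to -2.31 for ZNF512B (log2). HPDL, a mitochondrial dioxygenase, was at 38.3, 40.98, 36.6 and 38.8 CPM at 24 h and 8.33, 7.79, 8.37 and 8.49 CPM at 48 h, a difference of -2.23 ± 0.07 (log2, SE; adjusted p = 6.94e-14, edgeR). ADRA2A, an adrenergic receptor, was at 26.7, 30.05, 27.9 and 25.8 CPM at 24 h and 6.08, 6.804, 6.17 and 6.95 CPM at 48 h, a difference of -2.09 ± 0.08 (log2, SE; adjusted p = 1.35e-12, edgeR). FHOD1, an actin regulator, was at 90.02, 93.4, 70.2 and 97.1 CPM at 24 h and 22.8, 24.9, 19.4 and 21.5 CPM at 48 h, a difference of -1.99 ± 0.09 (log2, SE; adjusted p = 3.42e-11, edgeR). The groups lay far apart in each of these, which follows from how genes of this rank were chosen. The zinc finger genes ZNF512B and ZNF488, TMEM52, DDN, HSPA12B, ANKRD43 (now SOWAHA) and a pair of transcripts listed by clone names also belonged to this rank, with ZNF512B, TMEM52 and DDN below 5 CPM in every library.

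Genes of differentiation and of the cell surface went both ways. Of 17 Wnt targets and antagonists, 8 fell and 2 rose, against 21.6% and 22.5% of all genes tested. LGR5, a receptor of intestinal stem cells, was at 7.74, 6.96, 6.07 and 8.08 CPM at 24 h and 2.43, 2.54, 1.77 and 2.16 CPM at 48 h, a difference of -1.70 ± 0.14 (log2, SE; adjusted p = 2.08e-08, edgeR), and the Wnt antagonist DKK1 rose by 1.69. NOTCH1 fell by 1.37 and its ligand JAG1 rose by 2.03. Of 32 genes of junctions, adhesion and keratins, 18 rose and 6 fell. CLDN1, of tight junctions, was at 24.3, 26.7, 27.8 and 24.3 CPM at 24 h and 93.4, 94.8, 96.6 and 99.1 CPM at 48 h, a difference of 1.90 ± 0.06 (log2, SE; adjusted p = 1.04e-13, edgeR). KRT17, a stress keratin, rose by 2.32 and KRT23 by 2.20, and CDH1, E-cadherin, rose by 0.60. CD55, which protects cells from complement, was at 31.2, 34.6, 33.4 and 32.4 CPM at 24 h and 297, 223, 323 and 294 CPM at 48 h, a difference of 3.11 ± 0.09 (log2, SE; adjusted p = 9.16e-14, edgeR). CDX1, an intestinal lineage factor, fell by 1.04 from a level of at most 3.72 CPM.

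The drug libraries hold the same 2 times and give the change from 24 to 48 h in cells that the comparison above does not use, although their times come from the same 2 count tables. In a fit of all 32 RNA libraries with 23140 genes, 862 genes were higher and 225 lower at 2-fold within GW3965 (3.73% and 0.972%), 702 and 371 within T0901317 (3.03% and 1.6%) and 1763 and 1168 within rosiglitazone (7.62% and 5.05%). With scaling by library size, the numbers within T0901317 were 968 higher and 245 lower. Of the 1128 genes called higher in DMSO, 894 (79.3%) were also called higher within rosiglitazone, against 256 (22.7%) within GW3965 and 240 (21.3%) within T0901317. Of the 739 called lower, the numbers were 522 (70.6%), 73 (9.88%) and 135 (18.3%). Over the 1128 genes, the median difference was 1.49 in DMSO, 1.68 within rosiglitazone, 0.59 within GW3965 and 0.57 within T0901317 (log2). The genes were chosen on the DMSO libraries, so their DMSO median is a description.

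The difference between the change in a drug and the change in DMSO was tested as an interaction, which uses the 8 DMSO libraries again. It passed an adjusted p under 0.01 in 5006 genes for GW3965 (21.6%), 4036 for T0901317 (17.4%) and 566 for rosiglitazone (2.45%). The last number fell to 376 without replicate 4 of DMSO at 24 h and to 371 without replicate 2 of DMSO at 48 h. Among the 38 stress response genes, 35 had an interaction with GW3965 and 35 with T0901317, each with a lower 48 h against 24 h difference than in DMSO, and 5 had one with rosiglitazone, each with a higher difference. Their summed level, with the scaling of all 32 libraries, rose from between 4022 and 4306 CPM to between 15479 and 16650 CPM in DMSO and from between 4525 and 4667 CPM to between 17638 and 22995 CPM with rosiglitazone. With GW3965 it went from between 5658 and 6660 CPM to between 7923 and 10116 CPM, and with T0901317 from between 5825 and 6324 CPM to between 6983 and 8683 CPM. At 48 h the libraries of both LXR agonists thus lay below all DMSO libraries, and at 24 h above them.

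All 8 AP1 subunits had an interaction with GW3965 and with T0901317, and 2 with rosiglitazone. Their median change was 1.56 in DMSO, 1.82 with rosiglitazone, 0.30 with GW3965 and 0.04 with T0901317 (log2). The share of all genes of the fit with an interaction was 21.6% for GW3965, 17.4% for T0901317 and 2.45% for rosiglitazone. Of the 44 replication genes, 14 (31.8%) had an interaction with GW3965, 12 of them toward a smaller fall. With T0901317 there were 10 (22.7%), 9 of them toward a smaller fall, and with rosiglitazone none. The count for T0901317 was near the share of all genes. Of the 17 heat shock genes, 8 (47.1%) had an interaction with each LXR agonist and none with rosiglitazone. Of these 8, 5 had a higher 48 h against 24 h difference than DMSO with GW3965 and 6 with T0901317, and the rest a lower one. Of the 26 cholesterol genes, 16 (61.5%) had an interaction with GW3965, 18 (69.2%) with T0901317 and none with rosiglitazone. The difference was higher than in DMSO for 14 of the 16 and 17 of the 18. By the share of all genes, lists of this size would hold few or no interactions with rosiglitazone. Replication and heat shock genes were lower at 48 h in all 4 treatments, with median changes between -0.51 and -0.96 and between -0.61 and -0.72 (log2). The cholesterol list had a median change of -0.49 in DMSO and -0.57 with rosiglitazone, against -0.17 with GW3965 and -0.01 with T0901317.

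**Figure D4:**
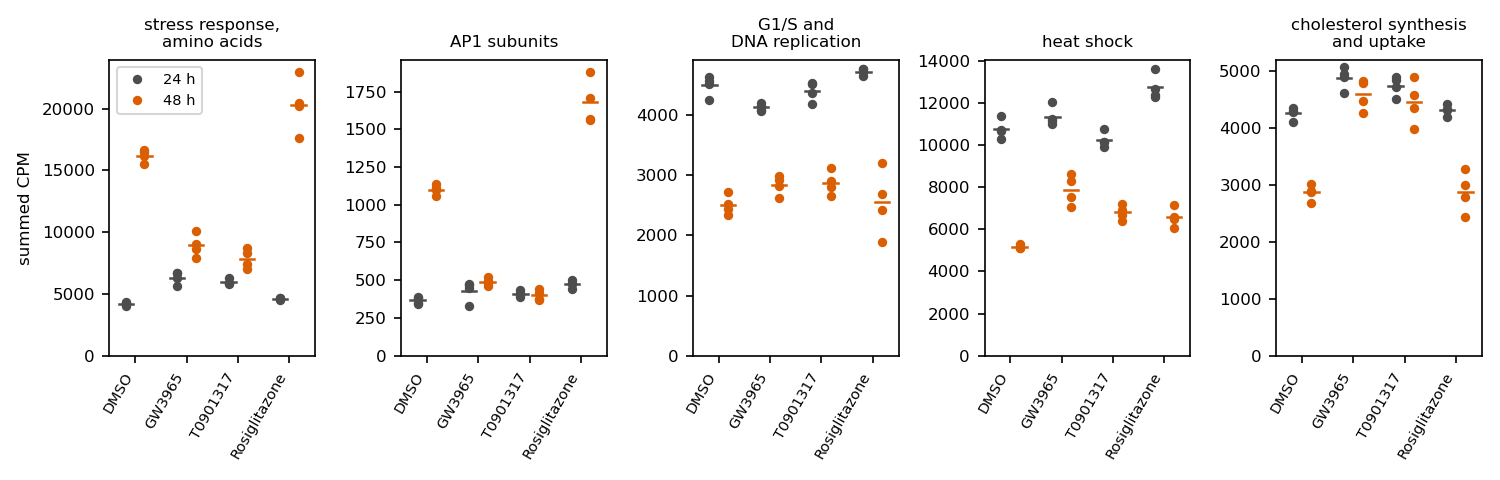
Summed CPM (y axes, starting at 0) of 5 gene lists in each RNA library at 24 h (grey) and 48 h (orange), for DMSO, GW3965, T0901317 and rosiglitazone (x axis); points are libraries, 4 per group, and bars are means. The stress response and AP1 sums rise most in DMSO and rosiglitazone, replication and heat shock sums are lower at 48 h in every treatment, and the cholesterol sums fall in DMSO and rosiglitazone.

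The genes with the smallest interaction p among those called in DMSO were largely the growth factor and stress genes given above. ERRFI1 rose by 3.89 (log2) in DMSO and by 3.84 with rosiglitazone, but by 0.32 with GW3965 and 0.45 with T0901317. The interaction of ERRFI1 was -3.57 ± 0.12 for GW3965 (adjusted p = 2.61e-20, edgeR). AREG changed by 3.58 in DMSO, 4.04 with rosiglitazone, -0.34 with GW3965 and 0.25 with T0901317. FOSL1 rose by 1.53 in DMSO and 2.19 with rosiglitazone, and its change was -0.97 with GW3965 and -1.27 with T0901317. Of these 3 genes, FOSL1 also had an interaction with rosiglitazone (0.66, adjusted p = 0.000378, edgeR). SLC14A1, a urea transporter, changed by 2.09 in DMSO and by -3.45 with rosiglitazone, an interaction of -5.53 ± 0.57 (adjusted p = 1.88e-07, edgeR). PPARD rose by 1.10 in DMSO and by 2.11 with rosiglitazone, an interaction of 1.02 ± 0.13 (adjusted p = 1.18e-05, edgeR).

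**Figure D5:**
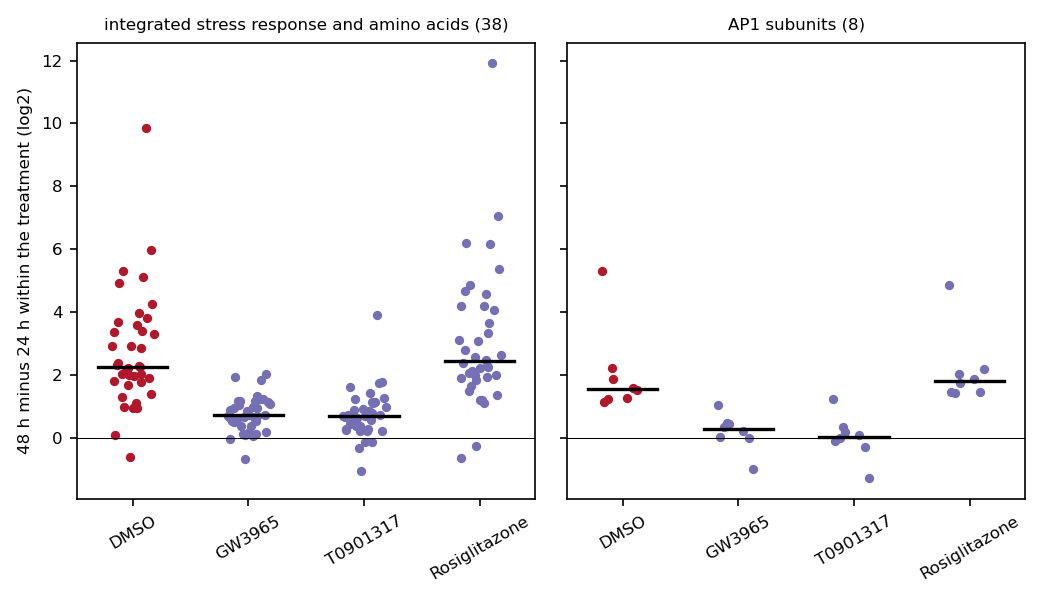
Change from 24 to 48 h within each treatment (log2, y axis) for the 38 stress response genes (left) and the 8 AP1 subunits (right), in the fit of all 32 RNA libraries; points are genes and bars are medians. The medians of the stress response genes are 2.28 in DMSO and 2.44 with rosiglitazone, 0.73 with GW3965 and 0.70 with T0901317, and the fitted value of FGF21 in DMSO rests on 0 counts at 24 h.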

How the data were processed

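Messenger RNA of HT29 cells was made into paired-end Nextera libraries by the authors, who deposited a table of raw counts per gene for each time point, with 51838 genes. TopHat, Cufflinks and hg19 are named in the submitters' processing notes, without roles or versions; the sources used here do not give the counting program, annotation release or strand setting. The authors used DESeq with an adjusted p limit of 0.01 and fold limits of 2 and 1.5, and these limits were kept. Peak files of the series were not used, since the labels of their DMSO samples give no hour.

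From the deposited counts, the 8 DMSO libraries were fitted with edgeR 4.0.16 (R 4.3.3, limma 3.58.1): filterByExpr, TMM scaling and the quasi-likelihood test, adjusted by Benjamini-Hochberg over all 21023 genes tested. Each SE is the absolute difference divided by the root of its F value. The biological coefficient of variation was 0.0748, and 0.0998 in the fit of all 32 RNA libraries (23140 genes) that gave the changes within drugs and the interactions. Single values were compared by exact permutation tests (scipy 1.17.1). On simulated counts for the DMSO comparison (20440 genes), edgeR recovered 200 of 200 changed genes with 1 false call. DESeq2 1.42.0 recovered 200 of 200 with 2 false calls (21023 genes), and the interaction with GW3965 recovered 191 of 200 with 2 (22723 genes). The changed genes had the same fold change, above the 2-fold limit, in either direction, and a mean of at least 1 CPM. They were far fewer than the genes called in the data. Smaller changes and lower levels were thus not covered.

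Members and the 46 gene lists were chosen with earlier results of these data known. Genes are named if they were among the 15 largest increases or decreases called at 2-fold with a mean log2 CPM of at least 1 and groups that do not overlap, among the 6 largest differences of a list, a member of a list of at most 15, a receptor or target of the drugs, among the 10 most abundant genes, or among the 6 smallest interaction p-values of a drug; exceptions are said to be such, and some genes that meet the rule are not reported here. Lists are described by counts and medians, with no test of a list. Alternatives were DESeq2, other scalings and filters, a fit of all libraries, a test against 1.5-fold, a replicate block and leaving out each library. Total counts limit the precision of genes of low level, and intervals of counting were not computed. Promoters came from RefSeq (GRCh38.p14).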

Additional observations from a re-analysis of the deposited data

Results flagged for a closer look

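Within the groups of 4 libraries, single libraries stood apart from the other 3 in 22 of 376 groups of values checked, with a gap above the 95% limit of Dixon's test. Chance alone gives about 1 such group in 20 if values are independent. The number is near that, but values of genes from the same library are not independent. Replicate 3 was the library in 12 of the 22 groups. In genes of the stress response and of growth factor signalling these were CHAC1 at 48 h (replicate 3 lowest, 158 CPM), ULBP1 at 24 h (replicate 2 lowest, 0.663 CPM), FOSB at 48 h (replicate 3 highest, 14.2 CPM) and KLF10 at 24 h (replicate 1 highest, 31.6 CPM). Among chaperones they were HSPA1B (replicate 3 lowest at 24 h with 1326 CPM, replicate 2 lowest at 48 h with 487 CPM), HSPA1A (replicate 3 lowest at 24 h with 635 CPM, replicate 2 lowest at 48 h with 239 CPM), HSPA8 at 24 h (replicate 1 highest, 4868 CPM) and HSPH1 at 24 h (replicate 1 highest, 406 CPM). The others were ORC1 at 48 h (replicate 2 highest, 15.7 CPM), DKK1 at 24 h (replicate 1 highest, 11.45 CPM), NOTCH1 at 48 h (replicate 3 lowest, 101 CPM), NFIL3 at 48 h (replicate 3 highest, 18.995 CPM), KIAA1239 at 24 h (replicate 3 highest, 0.367 CPM), UNC5B at 48 h (replicate 2 lowest, 42.8 CPM), CXCL3 at 24 h (replicate 2 lowest, 0.298 CPM) and LYZ at 24 h (replicate 3 highest, 547 CPM). The mitochondrial share of replicate 3 at 48 h was 1.85% of counts. Between libraries of the same time, chi-squared per gene, a measure of how far counts differ, was 10.6 to 13.7 for pairs with replicate 3. For the other pairs it was 3.66 to 5.67. Replicate 3 was also lowest in the summed level of the stress response list at 24 h (4022 CPM), of the immediate early genes at 48 h (2338 CPM) and of the MAPK feedback list at 24 h (873 CPM). The causes were not tested.

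The change from 24 to 48 h differed between DMSO and each drug by a test of the interaction in edgeR, which uses the DMSO libraries for all 3 drugs. It was called in 5006 genes for GW3965 (21.6% of the genes of the fit), 4036 for T0901317 (17.4%) and 566 for rosiglitazone (2.45%). For GW3965 the smallest p-values among genes called in DMSO were those of ERRFI1 (-3.57, log2), KLF10 (-2.30), EREG (-3.44), CHAC1 (-3.89), AREG (-3.93) and ATF3 (-4.24). For T0901317 they were those of ERRFI1 (-3.44), KLF10 (-2.43), CHAC1 (-3.97), ARRDC4, an arrestin-like gene that answers to glucose (-3.50), FOSL1 (-2.80) and EREG (-3.16). For rosiglitazone they were those of SLC14A1 (-5.53), DUSP1 (1.91), the actin-binding COTL1 (0.86), SFN, which encodes 14-3-3 sigma (1.48), PPARD (1.02) and F2R, a thrombin receptor (-1.28). By list, the members with an interaction were 35, 35 and 5 of the stress response genes for GW3965, T0901317 and rosiglitazone, 8, 8 and 2 of the AP1 subunits, 14 and 10 of the replication genes for both LXR agonists, 8 and 8 of the heat shock genes, and 16 and 18 of the cholesterol genes.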

How the results depend on the processing

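The counts of genes at 2-fold and 1.5-fold stayed within 1.5 times their value under every alternative run. The counts at 2-fold were lowest at a minimum of 1 CPM in 4 libraries, with 883 higher and 557 lower. They reached 1314 higher with no filter on low counts and 797 lower in the fit of all 32 RNA libraries. DESeq2 gave 1150 and 710, and 1755 of its 1860 genes were shared with edgeR. The test against a 1.5-fold limit, counted without the 2-fold limit, gave 1218 and 861. It shared 1465 of the 1867 genes of the main calls. Leaving out 1 DMSO library gave 1098 to 1186 genes higher and 676 to 779 lower, 36 stress response genes higher each time, 4307 to 4916 interactions with GW3965, 3497 to 3858 with T0901317 and 371 to 578 with rosiglitazone. With scaling by library size, 968 genes were higher and 245 lower within T0901317, against 702 and 371. Without both replicates 3, an alternative chosen after seeing the data, 4239, 3253 and 473 interactions remained for GW3965, T0901317 and rosiglitazone. Same-numbered libraries of 24 and 48 h correlated by 0.084, -0.047, 0.17 and 0.093 after removal of group means. Replicates 1, 3 and 4 of 24 h correlated best with their own number at 48 h. Replicate 2 of 24 h correlated best with replicate 1 of 48 h (0.15). These values do not settle whether the numbers pair the libraries. With the replicate number as a block, 1116 genes were higher and 721 lower, 1805 of these 1837 genes were shared, and 4817, 3915 and 509 interactions were called. The sign changed for genes that were not called: ALDH1L2 was -0.0072 with the replicate block and -0.16, -0.078 and -0.37 without replicate 2 at 24 h, replicate 2 at 48 h and replicate 4 at 48 h (range over single libraries left out -0.37 to 0.47), and LYZ was 0.0083 with scaling by library size, 0.046 without replicate 3 at 24 h (range -0.036 to 0.046) and 0.050 without both replicates 3. The causes were not tested. Depth limits the genes below 1 CPM, whose differences rest on few counts per library.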

Other observations

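Other lists are given here beside the shares of all genes tested, of which 22.5% rose and 21.6% fell. Of 23 genes of chemokines and NFKB feedback tested, 12 rose and 2 fell, with a median of 0.66 (log2). LCN2, which withholds iron from bacteria, was at 40.7, 41.1, 41.4 and 39.5 CPM at 24 h and 262, 203, 221 and 220.3 CPM at 48 h, a difference of 2.48 ± 0.07 (log2, SE; adjusted p = 4.57e-14, edgeR). The chemokines rose from very low levels: CXCL3 was between 0.298 and 0.588 CPM at 24 h and between 2.697 and 4.32 CPM at 48 h, and CCL20 between 0.122 and 0.355 CPM and then between 1.41 and 2.07 CPM. IL32, a cytokine, rose by 2.05 (log2). Of 34 interferon-stimulated genes, 10 rose and 4 fell, and the exonuclease ISG20 rose by 2.39 (adjusted p = 8.84e-10, edgeR). Of 15 genes of antigen presentation, 3 rose and 1 fell. Of 12 genes of complement and acute phase, 5 rose and 1 fell. Of 18 clock genes, 9 rose and 1 fell, with a median of 0.56. The clock repressor NFIL3 was at 4.09, 4.14, 3.796 and 2.45 CPM at 24 h and 17.8, 17.7, 18.99 and 17.8 CPM at 48 h, a difference of 2.32 ± 0.12 (log2, SE; adjusted p = 8.39e-11, edgeR). NR1D1, which represses the clock factor ARNTL, rose by 1.56, ARNTL itself by 1.10, BHLHE40 by 1.43 and PER2 by 1.02.

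Of 17 nuclear-retained and small RNA host transcripts, 11 rose and 1 fell, with a median of 0.58 (log2). NEAT1, the scaffold of paraspeckles, was at 312, 311, 313 and 319 CPM at 24 h and 1374, 1172, 1504 and 1285 CPM at 48 h, a difference of 2.09 ± 0.07 (log2, SE; adjusted p = 1.59e-13, edgeR). SNHG1, a host of small nucleolar RNAs, rose by 1.25. Of 25 genes of autophagy and lysosome, 8 rose and 4 fell; MAP1LC3B, of the autophagosome membrane, was at 22.8, 22.3, 22.5 and 20.99 CPM at 24 h and 129.5, 117, 137 and 128 CPM at 48 h, a difference of 2.53 ± 0.06 (log2, SE; adjusted p = 5.06e-15, edgeR), GABARAPL1 of the same family rose by 1.43 and the receptor SQSTM1 by 0.77. Of 23 CYP, UGT and sulfotransferase genes, 6 rose and 2 fell. CYP3A5, a drug-metabolising enzyme, was at 56.00, 57.7, 58.3 and 59.5 CPM at 24 h and 156, 135, 179 and 169 CPM at 48 h, a difference of 1.47 ± 0.07 (log2, SE; adjusted p = 5.36e-11, edgeR), and CYP2B6 rose by 3.07, with reads that its pseudogene may share. Of 15 genes of BMP and TGF-beta feedback, 11 rose and 2 fell. ID1, an inhibitor of differentiation factors, was at 43.5, 43.5, 41.7 and 40.8 CPM at 24 h and 179.7, 155, 193 and 175 CPM at 48 h, a difference of 2.05 ± 0.06 (log2, SE; adjusted p = 1.29e-13, edgeR), and the ligand BMP4 fell by 1.27. Of 17 YAP and TEAD targets, 11 rose and 3 fell.

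Of 12 genes of the MYC network, 7 rose and 4 fell. MYC, a factor of growth, was at 208, 215, 185 and 195 CPM at 24 h and 355, 321, 323 and 345 CPM at 48 h, a difference of 0.74 ± 0.06 (log2, SE; adjusted p = 1.10e-08, edgeR), and MXD1, which competes with it for MAX, rose by 1.48. Of 38 genes of ribosome biogenesis, 10 rose and 15 fell, none of them by 2-fold. Of 9 histone genes, 3 rose, HIST1H2AC by 2.70 from a level of at most 1.701 CPM. Of 28 NRF2 and antioxidant genes, 11 rose and 13 fell; NOX1, an oxidase of colon epithelium, was at 7.03, 7.85, 10.8 and 7.87 CPM at 24 h and 29.2, 29.7, 31.995 and 31.9 CPM at 48 h, a difference of 1.87 ± 0.10 (log2, SE; adjusted p = 2.12e-10, edgeR). Of 27 hypoxia genes, 14 rose and 6 fell, and NDRG1, a differentiation gene, rose by 1.27. Lists can share members, so their counts are not separate. The largest increases of the hypoxia and NRF2 lists were those of DDIT4 (4.28) and SLC7A11 (2.85), which are also in the stress response list. Of 27 PPARG targets and genes of fatty acid oxidation, 13 rose and 4 fell, and PLIN5, of lipid droplets, rose by 1.79 from at most 0.696 CPM. Of 6 metallothionein and zinc genes, 2 rose and 2 fell, MT1G by 1.70 from about 1 CPM. Of 13 genes of the mitochondrial genome, 3 fell and none rose, in libraries whose mitochondrial share was lowest in replicate 3 at 48 h. Of 22 ABC transporters, 4 rose and 7 fell.

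Lineage genes went both ways. Of 22 Notch and lineage genes, 8 rose and 7 fell: HES1, a Notch target, was at 22.4, 24.6, 25.4 and 21.7 CPM at 24 h and 65.5, 64.6, 73.9 and 70.7 CPM at 48 h, a difference of 1.55 ± 0.07 (log2, SE; adjusted p = 7.11e-12, edgeR), and KLF4, of differentiated cells, was at 24.7, 23.6, 19.8 and 19.7 CPM at 24 h and 77.5, 73.7, 71.9 and 83.5 CPM at 48 h, a difference of 1.80 ± 0.08 (log2, SE; adjusted p = 7.04e-12, edgeR). Of 28 enterocyte genes, 10 rose and 4 fell. FABP1, a fatty acid binding protein, rose by 1.24 with overlapping groups, and the adhesion gene CEACAM6 was at 46.1, 40.1, 42.7 and 47.6 CPM at 24 h and 18.1, 18.2, 18.3 and 18.7 CPM at 48 h, a difference of -1.27 ± 0.06 (log2, SE; adjusted p = 5.75e-11, edgeR). Of 21 goblet cell and mucin genes, 6 rose and 4 fell, and of 6 enteroendocrine genes, 1 rose and none fell. Of the 12 epithelial markers, 3 rose and 5 fell, of which CDX1 reached 2-fold. None of these groups had a common direction.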
